A study of Arabidopsis thaliana with 9 samples.

Results

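The genes described here were higher in *fpa* seedlings than in wild type and were not raised to the same extent in *bdr1,2,3* seedlings. A nuclear gene was taken when its lowest *fpa* library lay above its highest wild-type library, when its mean in *fpa* was at least 1 CPM (the count divided by the library total and multiplied by 1000000) and at least 2 times the wild-type mean, and when its mean in *bdr1,2,3* was below 1.5 times the wild-type mean. AT2G01422 and AT3G59050 were left out by that rule. It gave 268 genes of 33323 nuclear genes in the count table, or 1.41% of the 18981 nuclear genes with a mean of at least 1 CPM in *fpa*. Because the levels in *fpa*, wild type and *bdr1,2,3* chose the genes, those levels are given as a description and were not tested. What was tested is the neighbors of these genes, whose own levels the rule did not use, although the test of a neighbor draws on the same libraries.

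RNA was sequenced from whole seedlings of *Arabidopsis thaliana* accession Col-0, which in every group had been kept 4 days at 4 °C in darkness and then grown for 8 days on MS plates at 21 °C under 16 h light and 8 h dark. Each genotype had 3 libraries. Wild type was Col-0 itself, *fpa* carried the *fpa-7* allele, and *bdr1,2,3* combined T-DNA insertions in *BDR1*, *BDR2* and *BDR3* (*bdr1-1*, *bdr2-1* and *bdr3-1*). The study's methods give biological triplicates for wild type and *bdr1,2,3* and do not name *fpa* there. Nothing in the labels says that the libraries came from separately grown plants, so p-values measure the spread between these libraries.

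FPA is an RNA-binding protein of the autonomous flowering pathway. It promotes cleavage and polyadenylation of nascent transcripts, and in *fpa* mutants RNA polymerase II is known to run past the normal 3′ end of some genes and into the gene beyond, giving chimeric RNAs. BORDER (BDR) proteins are plant proteins related to elongation factors and lie at gene borders. Loss of FPA or of other proteins of the autonomous pathway raises *FLC*, which encodes a repressor of flowering. Seedlings hold many cell types, and in whole-seedling RNA more RNA per cell and more cells of a type cannot be told apart.

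The targeted genes were checked before anything else. Counts over *FPA* were 58.2, 34.3 and 63.0 CPM in wild type and 47.2, 43.8 and 39.1 CPM in *fpa*, so the groups overlapped and the count over this gene does not mark the *fpa* libraries. *FLC* separated them, with 10.4, 9.80 and 17.9 CPM in wild type, 107, 138 and 141 CPM in *fpa* and 130, 110 and 124 CPM in *bdr1,2,3*. *BDR1* separated *bdr1,2,3*, at 1.07, 1.97 and 0.893 CPM, from wild type, at 43.1, 23.6 and 40.9 CPM, and from *fpa*, at 51.0, 55.4 and 46.8 CPM. Between *fpa* and wild type *BDR1* was not called by edgeR (log2 fold change 0.37, adjusted p = 0.309). *BDR2* had 19.8, 11.6 and 18.7 CPM in wild type and 9.71, 11.4 and 8.72 CPM in *bdr1,2,3*, and *BDR3* had 11.8, 5.07 and 11.5 CPM and 6.37, 8.18 and 3.23 CPM, so counts over *BDR3* overlapped between these genotypes. Library totals ran from 8676610 to 26861793 counts. Wild-type replicate 12 was the shallowest library and stood apart: over all tested genes its median level lay 0.29 below the mean of the other wild-type libraries on the log2(CPM + 1) scale, and it was the lowest wild-type library for 182 of the 268 genes. Without it the rule gave 262 genes, of which 176 were among the 268. With library sizes scaled by the trimmed mean of M-values (TMM) it gave 228 genes, of which 203 were among the 268. Whichever of the 9 libraries was left out, 85 of the 268 genes met the rule, and these included 52 of the 102 genes with a ratio of at least 3.

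The sequence between neighboring genes is shown because some of these genes lie directly behind another gene on the same strand. Whether it plays a part in their levels was not tested. The stretches below lie between the end of the upstream neighbor and the start of the gene, contain no other annotated gene, and are read 5′ to 3′ on the strand of the gene from the RefSeq assembly TAIR10.1, whose nuclear chromosomes match TAIR10. They are shown for 4 of the 11 tandem pairs in which the upstream neighbor was lower in *fpa*, those at most 235 bp apart that do not overlap and have no other gene between them, and then for genes with a ratio of at least 10 that lie within 80 bp of the neighbor. Capitals mark the hexamer AATAAA, the DNA form of the canonical polyadenylation signal.
Between *ADK1* (AT5G63400) and AT5G63390, chr5:25392685-25392919, minus strand: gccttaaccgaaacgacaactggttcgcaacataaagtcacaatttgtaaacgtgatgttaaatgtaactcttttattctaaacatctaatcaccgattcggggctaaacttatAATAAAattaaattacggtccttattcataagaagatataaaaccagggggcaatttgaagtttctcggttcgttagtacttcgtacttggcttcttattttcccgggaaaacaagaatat
Between *mtLPD1* (AT1G48030) and *PMEI1* (AT1G48020), chr1:17716809-17716892, minus strand: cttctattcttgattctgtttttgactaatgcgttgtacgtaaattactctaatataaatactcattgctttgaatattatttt
Between AT3G11070 and *RLP35* (AT3G11080), chr3:3470234-3470303, plus strand: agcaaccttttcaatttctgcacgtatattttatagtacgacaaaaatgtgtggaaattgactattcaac
Between AT2G17033 and AT2G17036, chr2:7403662-7403692, plus strand: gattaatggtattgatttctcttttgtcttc
Between AT1G06960 and *CHX14* (AT1G06970), chr1:2137839-2137870, plus strand: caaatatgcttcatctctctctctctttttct
Between AT3G59840 and AT3G59830, chr3:22105442-22105521, minus strand: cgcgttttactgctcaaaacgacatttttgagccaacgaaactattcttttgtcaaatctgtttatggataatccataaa
Between AT5G42130 and AT5G42120, chr5:16835170-16835232, minus strand: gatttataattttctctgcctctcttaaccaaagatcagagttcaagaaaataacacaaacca
Of these stretches, the one in front of AT5G63390 holds the hexamer. The search covered the strand of the gene only and counted every match. In the 200 bases before the start of each protein-coding gene, the hexamer was present for 84 of 256 of the genes described here (32.8%) and for 7043 of 19547 other tested genes (36.0%).

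Most of the 268 genes had few counts and were modestly raised. Their median level in *fpa* was 3.74 CPM, 158 of them had a mean below 5 CPM, and 15 exceeded 30 CPM. The median ratio of *fpa* to wild type was 2.56. For ranking, the wild-type mean was raised to 0.206 CPM, the level of 3 counts per library, where it was lower, and on that scale 166 genes had a ratio of 2 to 3 and 15 had a ratio of 10 or more. The *fpa* libraries were close to each other, with a median coefficient of variation of 20.8%, and 15 genes exceeded 50%. As the rule demands, the lowest *fpa* library of each gene lay above its highest wild-type library, a property of 20.7% of the nuclear genes with a mean of at least 1 CPM in *fpa*. In an edgeR quasi-likelihood fit across all 20413 tested genes, 76 of the 267 genes that passed the filter on low counts were called higher in *fpa* at an adjusted p under 0.05, against 1.28% of all tested genes. That contrast is the one the rule used, and nothing is read from the count.

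In *bdr1,2,3* the rule set only an upper limit on the mean. The median ratio of *bdr1,2,3* to wild type was 1.1, with 107 genes below 1 and 31 at or below 0.5. In 246 of the 268 genes the lowest *fpa* library also lay above the highest *bdr1,2,3* library. Of the nuclear genes at or above the level limit 15.2% had this separation. The limits of the rule put the *fpa* mean above the *bdr1,2,3* mean in every gene, so nothing is read from that count. In 14 genes every *bdr1,2,3* library lay below every wild-type library, as in 7.02% of those nuclear genes.

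**Figure D1:**
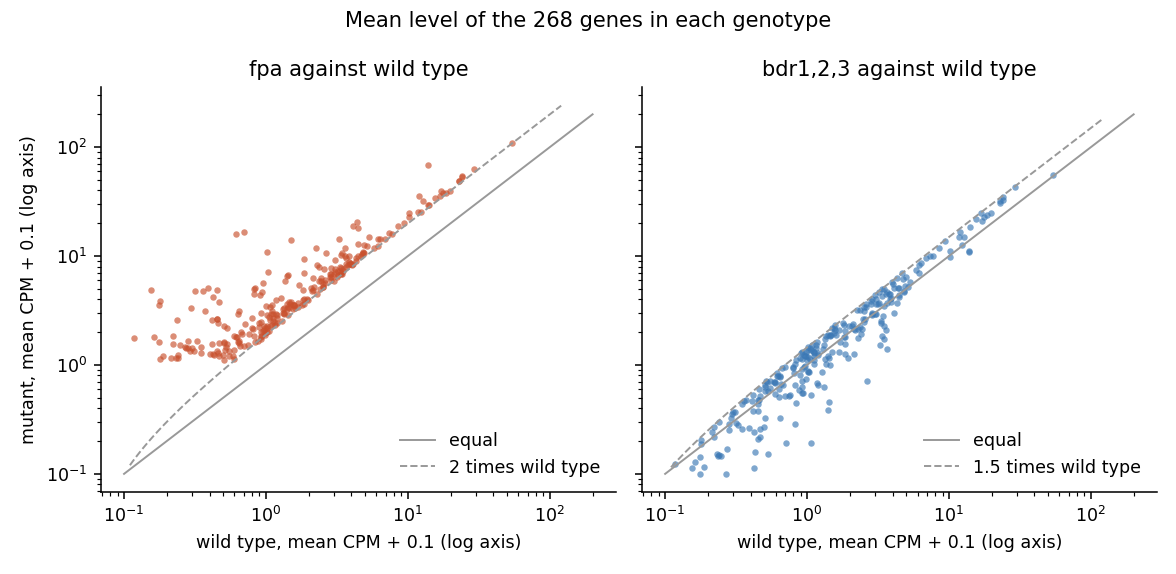
Each point is 1 of the 268 genes, with its mean level in wild type on the horizontal axis and its mean level in *fpa* (left) or *bdr1,2,3* (right) on the vertical axis, in CPM + 0.1 on log axes. Solid lines mark equal levels and dashed lines the limits of the rule, 2 times wild type for *fpa* and 1.5 times for *bdr1,2,3*; most genes sit close above the *fpa* limit, and most of those far above it are low in wild type.

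The thresholds cut through a continuous range. AT4G39670 and AT2G27920 were just inside the ratio limit at 2.001 and 2.002, and AT4G02850 and AT2G37090 were just outside it at 1.999 each. For the level limit, AT4G14368 and AT3G27640 were just inside with 1.02 and 1.03 CPM in *fpa*, and AT4G39320 and AT2G10930 were just outside with 0.994 and 0.991 CPM. For the *bdr1,2,3* limit, *GLR3.5* and AT1G54790 were just inside with ratios of 1.497 and 1.496, and AT3G44550 and AT1G63350 lay just outside at 1.5. For the separation of libraries, the lowest *fpa* library was 1.006 and 1.007 times the highest wild-type library for AT2G24750 and AT2G04460, which were inside, and 0.9968 and 0.9957 times for AT5G57010 and AT1G31200, which were outside.

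The genes with the highest ratios were nearly silent in wild type. AT5G24240, annotated as a phosphatidylinositol 4-kinase gamma-like protein, had 0.159, 1.04 and 0.335 CPM in wild type, 1.07, 0.524 and 0.481 CPM in *bdr1,2,3* and 15.9, 15.7 and 15.7 CPM in *fpa*. The *fpa* libraries were almost equal, and the ratio of the means was 31.0. AT5G63390, an O-fucosyltransferase family gene at chr5:25390249-25392684, had 0.424, 0.346 and 1.04 CPM in wild type, 0.401, 0.443 and 0.412 CPM in *bdr1,2,3* and 16.2, 19.8 and 13.7 CPM in *fpa*. This is a 27.5-fold higher mean in *fpa*, with *bdr1,2,3* inside the range of wild type. AT1G32375, which encodes an F-box protein, a class of subunits that choose targets for ubiquitin ligases, had at most 3 counts in any wild-type library and 5.65, 4.81 and 3.78 CPM in *fpa*. Its mean in *fpa* was at least 23.1-fold higher than 3 counts per library. *CHX14*, a cation/proton exchanger gene, was at or under that floor in wild type too, had no counts in *bdr1,2,3*, and reached 2.65, 5.49 and 2.31 CPM in *fpa*, at least 16.9-fold above the floor. In all, wild type was at or under 3 counts in every library for 7 of the 268 genes, and the ratios of those genes are lower bounds.

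Other genes at the top of this order were AT5G03435 (mean 4.63 ± 0.762 CPM in *fpa* and 0.215 ± 0.279 in wild type, SD, n = 3), AT5G63350 (4.64 ± 0.621 and 0.258 ± 0.17), AT1G55800 (4.98 ± 1.19 and 0.291 ± 0.171) and AT3G59830 (3.24 ± 0.436 and 0.194 ± 0.337), an integrin-linked kinase family gene. AT2G22460, AT5G42120 and *CRK15* followed. AT5G42120 encodes a lectin-domain receptor kinase and *CRK15* a cysteine-rich receptor-like kinase, both of families that sit at the plant cell surface. *PDF1.2*, a plant defensin gene and a common marker of jasmonate and ethylene signaling, stood out by its spread, with 8.94, 1.64 and 0.687 CPM in *fpa*. Replicate 3 carried most of that signal, and *PDF1.2* had an SD of 4.52 around a mean of 3.76 CPM. AT5G42530, picked after its values were seen, had the same pattern, with 18.8 CPM in replicate 3 of *fpa* and 4.13 and 4.12 CPM in replicates 6 and 8.

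**Figure D2:**
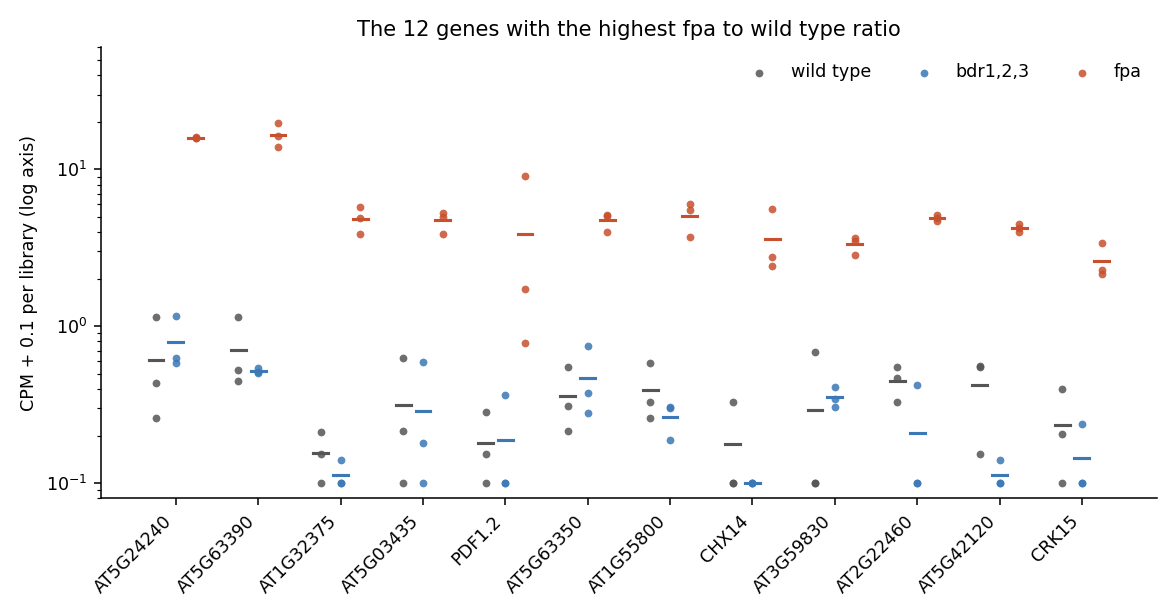
Points are single libraries and bars are genotype means of CPM + 0.1 on a log axis for the 12 genes with the highest ratio of *fpa* to wild type, ordered from left to right. Wild type and *bdr1,2,3* overlap for most of these genes while the *fpa* libraries sit well above them, and the *fpa* libraries of *PDF1.2* are spread from 0.687 to 8.94 CPM.

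The genes with the most counts in *fpa* were a different set, and most were little more than 2-fold higher. AT3G05727, which encodes a small secreted protein related to pollen coat proteins, had 59.6, 47.0 and 54.3 CPM in wild type, 55.1, 53.4 and 57.3 CPM in *bdr1,2,3* and 120, 83.5 and 123 CPM in *fpa*, a ratio of 2.03. *5PTase12* (AT2G43900), an inositol polyphosphate 5-phosphatase gene, was the exception, with 16.3, 9.22 and 15.7 CPM in wild type and 78, 68 and 59.4 CPM in *fpa*. Its ratio was 4.97, and it starts 319 bp behind AT2G43910 on the same strand. Genes for ribosome assembly were in this set: AT3G05060, a NOP56-like protein of the small nucleolar ribonucleoprotein, had a mean of 23.9 CPM in wild type and 54.1 CPM in *fpa*, and AT2G37990, annotated as an RRS1 ribosome biogenesis factor, had 18.3 and 38.0 CPM. The others in the top 12 were AT5G06110, AT2G23540, *MFP1*, AT1G52070, AT4G19610, AT3G25190, AT4G29270 and AT5G12420, with *fpa* means from 35.6 to 63.1 CPM and ratios from 2.01 to 2.33. For *MFP1*, a gene for a plastid DNA-binding filament protein, wild-type replicate 12 had 7.84 CPM where the other wild-type libraries had 35.1 and 25.7 CPM, and *fpa* had 43.4, 54.9 and 48.4 CPM. The means of such genes depend on that library.

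The 268 genes lay on all 5 chromosomes, with 67, 37, 57, 42 and 65 on chromosomes 1 to 5, and 256 were protein-coding, 11 were pseudogenes and 1 a noncoding RNA. Locus numbers follow the order along a chromosome, and 7 pairs of the genes had consecutive numbers in the table. One pair was *GSTU2* (AT2G29480) and *GSTU1* (AT2G29490), glutathione S-transferases of the tau class, which conjugate glutathione to toxic compounds. *GSTU2* lies 19 bp behind *GSTU1* on the same strand. *GSTU1* had 14.1, 6.11 and 16.5 CPM in wild type and 33.0, 19.0 and 23.8 CPM in *fpa*, and *GSTU2* had 1.54, 1.15 and 1.12 CPM and 5.41, 5.38 and 6.52 CPM. *GSTU1* reached the ratio limit only with wild-type replicate 12, at 6.11 CPM. *CRK15* lies 198 bp behind *CRK16* in the same way, and *CRK16* had a mean of 1.21 CPM in wild type and 2.93 CPM in *fpa*. *AtSPO22* (AT5G48390), a homolog of a yeast meiosis gene, and *ATGLR1.2* behind it had *fpa* means 8.48 and 3.74 times wild type, the former with the wild-type mean raised to 3 counts per library. AT1G45545 (0.919 ± 0.199 CPM in wild type and 10.8 ± 1.9 CPM in *fpa*) lies 109 bp behind *RLP6* (0.728 ± 0.511 and 1.74 ± 0.807). The remaining pairs were the protein kinase genes AT1G66920 and AT1G66930, which are transcribed away from each other, the pseudogenes AT3G21040 and AT3G21050, and AT4G22520 and AT4G22530, which overlap on opposite strands. The sources used here do not give the strand setting of the counting, so reads of that last pair cannot be told apart.

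Several families had more than 1 gene in the set. Receptor-like proteins are cell-surface receptors with leucine-rich repeats and no kinase domain, and several act in defense. Of 34 *RLP* genes with a mean of at least 1 CPM in *fpa*, 6 were in the set, or 17.6%, against 1.41% of all nuclear genes at that level. The median log2 fold change of the tested members of that family was 0.15. *RLP34* had closely spaced libraries, with 3.18, 3.23 and 3.69 CPM in wild type, 2.54, 2.02 and 1.99 CPM in *bdr1,2,3* and 11.4, 11 and 8.98 CPM in *fpa*. *RLP19* had 4.67, 1.73 and 4.1 CPM in wild type, 3.07, 2.18 and 0.756 CPM in *bdr1,2,3* and 12.2, 13.0 and 9.91 CPM in *fpa*. Both were lower in the mean in *bdr1,2,3* than in wild type, with ratios of 0.648 and 0.572. *RLP31* had the most counts, with 23.7, 23.7 and 20.2 CPM in *fpa* and 13.6, 3.57 and 12.9 CPM in wild type. *RLP6*, *RLP35* and *RLP48* had *fpa* means of 1.74, 4.02 and 3.28 CPM. In wild type *RLP48* had 1.96, 0.461 and 2.35 CPM. *RLP31* and *RLP48* reached the ratio limit only with wild-type replicate 12, which had 3.57 and 0.461 CPM of these genes. Reads of related receptor genes can match more than 1 copy, and the counts hold uniquely aligned reads only.

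Glutamate receptor-like genes encode cation channels gated by amino acids. Of 14 genes of this family at or above the level limit, *GLR3.5*, *GLR2.4* and *ATGLR1.2* were in the set. This is 21.4%, against 1.41% of all nuclear genes at that level, and the median log2 fold change of the tested members of the family was 0.3. *ATGLR1.2* had 2.86, 1.04 and 2.61 CPM in wild type and 8.65, 9.18 and 6.52 CPM in *fpa*, and *GLR2.4* had 0.212, 0 and 0.186 CPM and 1.24, 1.30 and 0.638 CPM. *GLR3.5* sat close to the *bdr1,2,3* limit, with a mean of 6.86 CPM in that mutant between 4.58 CPM in wild type and 10 CPM in *fpa*. Its wild-type libraries had 5.83, 1.96 and 5.96 CPM, and *GLR3.5* reached the ratio limit only with replicate 12, at 1.96 CPM. Of the *NRT2* genes for high-affinity nitrate transporters, 3 reached the level limit and *NRT2.6* and *NRT2.3* were in the set (66.7%, against the same 1.41%). The median log2 fold change of the tested *NRT2* genes was 1.27. *NRT2.6* had 0.689, 1.04 and 1.19 CPM in wild type and 2.53, 4.64 and 2.85 CPM in *fpa*, and *bdr1,2,3* was lower than wild type in the mean for both genes, with ratios of 0.444 and 0.416.

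**Figure D3:**
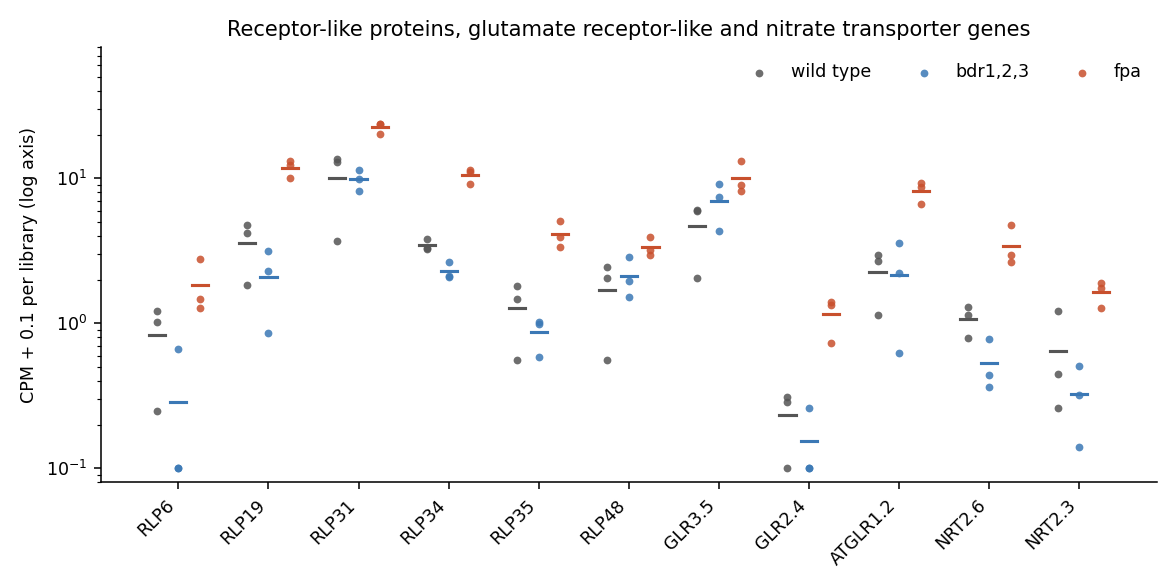
Points are single libraries and bars are genotype means of CPM + 0.1 on a log axis for 6 receptor-like protein genes, 3 glutamate receptor-like genes and 2 nitrate transporter genes. The *fpa* libraries lie above every wild-type library for each gene, as the rule demands, and the *bdr1,2,3* mean runs from 0.258 times wild type for *RLP6* to 1.5 times for *GLR3.5*.

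HXXXD-type acyltransferases, which make acylated specialized metabolites, had 4 of 41 genes in the set. AT1G78990 had a mean of 10 CPM in wild type and 24.5 CPM in *fpa*, and AT5G17540 had 1.30 and 6.45 CPM. GDSL lipases had 3 of 50, WSD1-like wax synthases 2 of 5, *SRO* genes 2 of 3 and CYP71A cytochrome P450s 2 of 10. Large families were taken by product name. Of genes named as kinases 22 of 745 (2.95%) were in the set, and of genes named F-box 7 of 167 (4.19%). Of genes named as NB-LRR disease resistance genes 4 of 115 (3.48%) were, against 1.41% of all nuclear genes at that level. The names miss some genes of the set, such as the F-box gene *SDC* and the kinase-like AT5G24240, which these counts leave out. These families were chosen after the set was known, and the shares were not tested.

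Several genes with known regulatory roles were in the set as well. *SDC*, an F-box gene that is normally silenced by DNA methylation, had 1.01, 0.231 and 0.968 CPM in wild type, 0.490, 0.403 and 0.137 CPM in *bdr1,2,3* and 3.94, 5.78 and 5.25 CPM in *fpa*. *IBM1*, which encodes a histone demethylase, had 18.6, 7.03 and 20.9 CPM in wild type and 30.1, 41.2 and 30.2 CPM in *fpa*. The value of 7.03 CPM is that of wild-type replicate 12, and *IBM1* reached the ratio limit only with that library. *GL3*, a bHLH gene that acts in trichome formation, had 0.530, 0.692 and 0.931 CPM in wild type and 3.18, 5.78 and 4.07 CPM in *fpa*. *IMS2*, whose protein acts in methionine-derived glucosinolate synthesis, had 2.55, 1.61 and 2.27 CPM in wild type and 17.9, 7.76 and 9.81 CPM in *fpa*. *QQS*, an orphan gene that affects starch content, had 1.33, 3.00 and 2.46 CPM in wild type and 5.59, 10.1 and 7.60 CPM in *fpa*. The defense receptor *EFR* had *fpa* to wild type ratios of 2.64 and the pathogenesis-related gene *PR5* of 2.12. These genes were picked by name after their values were seen.

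A list of 18 genes for 3′-end formation and the autonomous pathway, including *FCA*, *FY*, *FLD*, *CSTF64*, *CSTF77* and the CPSF subunits, held no member of the set, and none of the 18 was called in *fpa* by edgeR at an adjusted p under 0.05 or by DESeq2, with 3 at an unadjusted p under 0.05. Over all tested genes edgeR called 1.28% higher and 1.82% lower, and 1.41% of the nuclear genes at or above the level limit were in the set. At such shares a list of 18 genes can hold no call and no member without differing from other genes. The median log2 fold change of that list was -0.08, against 0.00 over all tested genes. *CSTF77* had the lowest value, -0.50 ± 0.18 (SE, adjusted p = 0.141). Markers of seedling shoot summed to between 8960 and 11800 CPM in wild type and between 8280 and 10100 CPM in *fpa*, and root markers to between 75.2 and 107 CPM and between 75.5 and 83.9 CPM. The 4 floral markers summed to at most 3.07 CPM in any library, and *AP3* and *AG* were at or near 0. The 5 seed storage markers ranged from 9.97 to 24.1 CPM in wild type and from 5.83 to 13.4 CPM in *fpa*. None of the 17 markers was in the set, 1 root and 1 seed storage marker were called lower in *fpa* and none was called higher. The shares over all tested genes were 1.82% lower and 1.28% higher, and these lists are short too. The part of the markers in the results was not tested.

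Position relative to other genes was not used by the rule. For each gene the nearest protein-coding gene on its 5′ side is called upstream and that on its 3′ side downstream. Of the 268 genes, 177 (66.0%) lay behind a neighbor transcribed from the same strand, a tandem arrangement in which the 3′ end of the neighbor points at the gene, against 51.2% of 20025 other tested genes. The share was higher among genes with a higher ratio. It was 60.2% of 166 genes with a ratio of 2 to 3, 71.4% of 49 genes from 3 to 5, 73.7% of 38 genes from 5 to 10, and 93.3% (14 of 15) of genes at 10 or more. The distance to the tandem neighbor, among pairs that did not overlap, fell along the same order, with medians of 733, 434, 351 and 235 bp, against 721 bp for other tested genes. The median wild-type levels of the tandem neighbors were 4.33, 12.7, 11.9 and 13.3 CPM per kilobase of exon (RPKM) in that order, against 4.39 RPKM for other tested genes. The first of these, for ratios of 2 to 3, was close to that of other tested genes. Downstream neighbors on the opposite strand were about as frequent as elsewhere (47.4% against 49.1%). These shares describe the set and were not tested.

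The levels of the neighbors gave a comparison that the rule did not fix. By locus number, 189 genes that precede a member and are not members themselves were tested, and edgeR called 15 lower and 3 higher in *fpa*. Of 191 genes that follow a member, 8 were lower and 4 higher. Over all tested genes 1.82% were lower and 1.28% higher. The 15 became 8 and 9 without replicates 6 and 8 of *fpa*, and the 8 became 3 when any 1 of the *fpa* libraries was left out and 5 without replicate 5 of wild type or replicate 4 of *bdr1,2,3*. Members were removed from these neighbors, which lowers the count of higher calls, so the counts of higher calls are not read further. Locus numbers do not give the strand, and the calls were therefore also grouped by orientation, a grouping chosen after the calls were seen.

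The neighbors whose 3′ end points at one of the genes are those upstream on the same strand and those downstream on the opposite strand. Of 246 such neighbors tested, 20 were lower in *fpa* (8.13%) and 3 higher, against 1.82% lower among the 15335 neighbors placed in this way around other tested genes. The 20 were 11 of 143 tandem upstream neighbors (7.69%, against 1.54%) and 9 of 103 convergent downstream neighbors (8.74%, against 2.08%). Of 168 neighbors whose 5′ end points at one of the genes, 3 were lower (1.79%, against 1.81%). The difference between these orientations was not itself tested. With replicate 6 of *fpa* left out the 20 became 11, with replicate 3 left out 13 and with replicate 8 left out 12, while the 3 became 0 in each case. In the same fits the lower calls over all tested genes went from 371 to 120, 145 and 102. The 3 also became 0 without replicate 5 of wild type or replicate 4 of *bdr1,2,3*, and 1 without replicate 1 of wild type.

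Expression level and overlap moved with this count. All 20 of the lower neighbors had a wild-type level of at least 10 RPKM, and among neighbors at that level 16.3% of 123 were lower, against 3.15% of 6772 around other genes. None of the 123 below 10 RPKM was called lower by edgeR (5 at an unadjusted p under 0.05, 2 by DESeq2), and of the neighbors with the 5′ end towards the gene none of 70 at or above 10 RPKM was (6 at an unadjusted p under 0.05, 1 by DESeq2). Below 10 RPKM, 3 of 98 neighbors with the 5′ end towards the gene were lower (3.06%), against 0.727% around other genes. Of the 55 that overlapped the gene 8 were lower (14.5%, against 2.59% around other genes), and of the 191 that did not overlap 12 were lower (6.28%, against 1.5% around other genes). How reads in an overlap, or on the strand opposite to a gene, were counted is not given in the sources used here, so for convergent pairs RNA of one gene cannot be told apart from RNA of the other where they meet. Along the order of the ratios, the lower neighbors were 4 of 144 next to genes with a ratio of 2 to 3, 7 of 49 from 3 to 5, 6 of 39 from 5 to 10 and 3 of 16 at 10 or more.

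**Figure D4:**
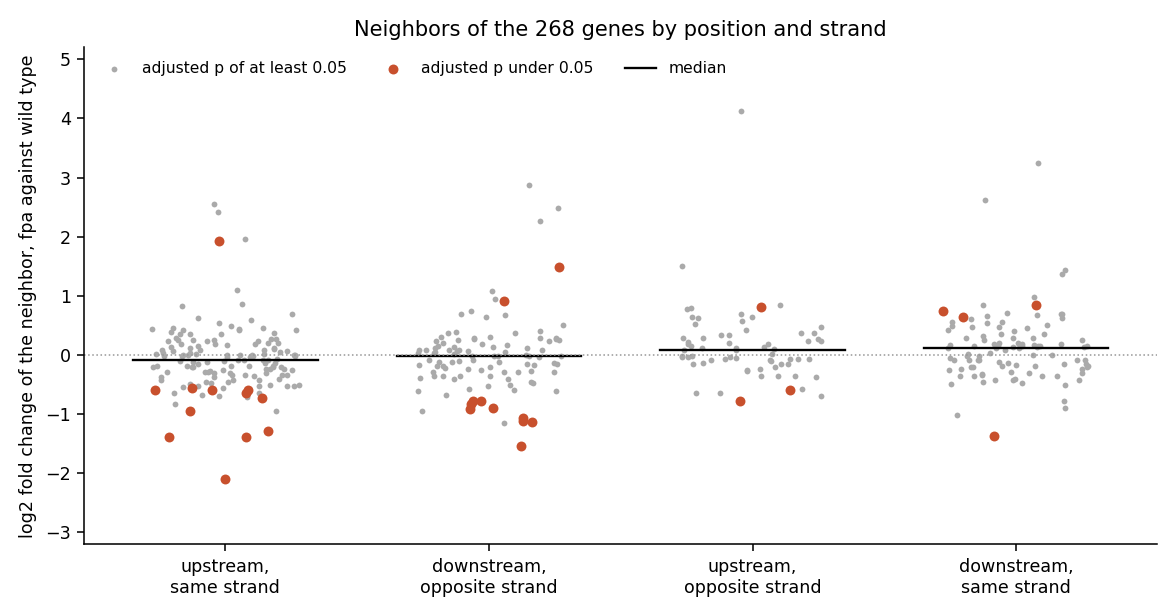
Points are tested neighbors of the 268 genes that are not in the set themselves, placed by position and strand, with the log2 fold change of *fpa* against wild type on the vertical axis. Large points passed an adjusted p under 0.05 and lines mark medians; 11 and 9 neighbors were lower in the left-hand groups, whose 3′ ends point at the gene, and 2 and 1 in the right-hand groups.

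*ADK1* (AT5G63400), which encodes adenylate kinase, an enzyme that balances adenine nucleotides, was the most strongly lowered neighbor. It had 118, 117 and 123 CPM in wild type, 105, 120 and 133 CPM in *bdr1,2,3* and 34.2, 30.1 and 29.0 CPM in *fpa*. Its log2 fold change in *fpa* was -2.09 ± 0.15 (SE, edgeR adjusted p = 1.17e-05), and in *bdr1,2,3* it was -0.11 (adjusted p = 0.76). The gene lies on the minus strand at chr5:25392920-25394907, and AT5G63390, raised 27.5-fold, begins 235 bp behind it. The stretch between them is the one printed above with the hexamer.

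In other tandem pairs the levels changed in the same directions. *LPA3* (AT1G73060), a photosystem II assembly gene, fell from 152, 202 and 164 CPM in wild type to 75.3, 71.2 and 76.7 CPM in *fpa* (log2 fold change -1.39 ± 0.18, edgeR adjusted p = 0.000941), and AT1G73066 behind it had 1.11, 0 and 1.41 CPM in wild type and 3.24, 5.83 and 4.76 CPM in *fpa*. *CLE41* (AT3G24770), the gene of a peptide ligand that controls vascular stem cells, fell by 1.38 ± 0.22 on the log2 scale (edgeR adjusted p = 0.00429), and AT3G24780, 1626 bp away, had an *fpa* mean 7.45 times wild type. AT1G18210, a calcium-binding EF-hand gene, fell by 1.28 ± 0.18 (edgeR adjusted p = 0.00153), and *RABA6b*, a small GTPase gene that overlaps it by 468 bp on the same strand, had 5.99, 2.88 and 3.98 CPM in wild type and 23.8, 21.1 and 16.8 CPM in *fpa*. In these pairs *fpa* lay below every wild-type and *bdr1,2,3* library in the neighbor and above every one of them in the gene. The 223 bp between *LPA3* and AT1G73066 hold 1 other annotated gene.

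The other tandem neighbors called lower changed less. AT2G21580, a ribosomal protein S25 gene, in front of *APL4*, a starch synthesis gene, had a log2 fold change of -0.95. *mtLPD1*, a subunit gene of mitochondrial dehydrogenase complexes, in front of *PMEI1*, had -0.72. *mtLPD1* was lower in *bdr1,2,3* too, with a log2 fold change of -0.77 (edgeR adjusted p = 0.0245), whereas *PMEI1* reached 1.41, 2.83 and 0.785 CPM in *fpa* and at most 0.0687 CPM in *bdr1,2,3*. AT2G17033, *RPL4*, *TOC75-III*, *ACDO1* and AT3G11070, in front of AT2G17036, AT1G07330, AT3G46730, *CTF7* and *RLP35*, had log2 fold changes between -0.64 and -0.56, with edgeR adjusted p from 0.0233 to 0.0439. Their changes were small, and the calls lie close to the threshold. AT2G17036 had 4.08, 1.73 and 4.32 CPM in wild type and a mean of 7.54 CPM in *fpa*. It reached the ratio limit only with wild-type replicate 12, at 1.73 CPM. Between *TOC75-III* and AT3G46730 lies 1 other annotated gene.

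Convergent neighbors fell by comparable amounts. AT5G17530, a phosphoglucosamine mutase family gene, had 35.6, 33.7 and 31.4 CPM in wild type, 30.6, 32.0 and 27.3 CPM in *bdr1,2,3* and 13.4, 14.7 and 10.4 CPM in *fpa* (log2 fold change -1.54 ± 0.16, edgeR adjusted p = 0.000234). It overlaps the acyltransferase gene AT5G17540 by 164 bp end to end, and AT5G17540 had 0.902, 1.04 and 1.97 CPM in wild type and 5.59, 7.48 and 6.28 CPM in *fpa*. *PPOX* (AT4G01690), a gene of the chlorophyll and heme pathway, and *Lhca5*, a photosystem I antenna gene, fell by 1.13 ± 0.15 and 1.11 ± 0.17 on the log2 scale (edgeR adjusted p = 0.00104 and 0.00332), next to the chitinase gene AT4G01700 and to AT1G45545. AT4G01700 had 4.24, 1.5 and 6.33 CPM in wild type and 8.71, 8.61 and 7.75 CPM in *fpa*. It reached the ratio limit only with wild-type replicate 12, at 1.5 CPM. AT4G14100, AT3G45050, *TAFII15*, *RIBA2*, AT2G35410 and *TLP18.3* had log2 fold changes from -1.07 to -0.77, next to AT4G14090, *NRT2.6*, *GLR2.4*, AT2G22460, AT2G35420 and AT1G54790. *TAFII15* ends 833 bp from *GLR2.4*, AT3G45050 36 bp from *NRT2.6* and *RIBA2* 27 bp from AT2G22460, while the others overlap the gene.

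**Figure D5:**
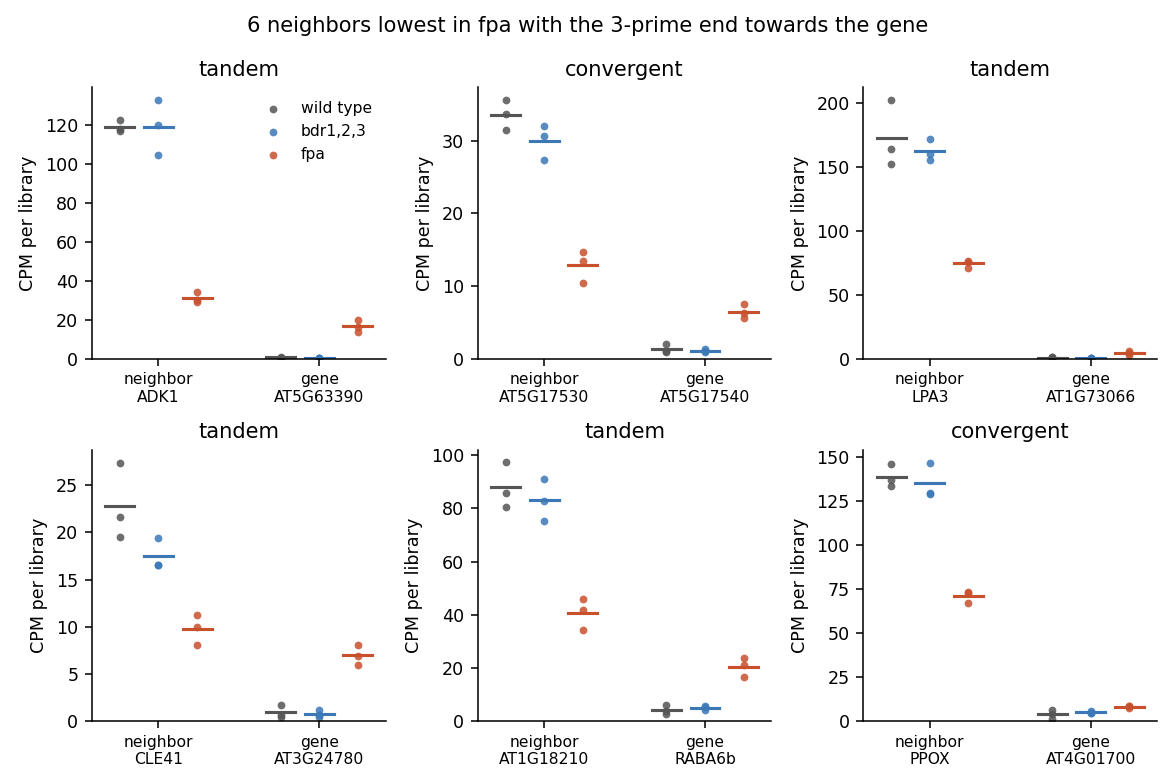
Points are single libraries and bars are genotype means in CPM on linear axes that start at 0, for the 6 neighbors with the lowest log2 fold change in *fpa* among those whose 3′ end points at the gene, each beside the gene. In each pair the *fpa* libraries are the lowest for the neighbor and the highest for the gene.

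Most strongly raised genes had no neighbor called lower. At a ratio of 10 or more, 3 of 16 neighbors with the 3′ end towards the gene were lower. The median log2 fold change of the tandem neighbors of those genes was -0.12. Over all 246 neighbors with the 3′ end towards one of the genes the median was -0.067, against -0.002 around other tested genes. AT5G24240, the gene with the highest ratio, lies 533 bp behind AT5G24260, whose log2 fold change was -0.08 (edgeR adjusted p = 0.83). *CHX14*, 32 bp behind AT1G06960 (0.12, adjusted p = 0.775), AT3G59830, 80 bp behind AT3G59840 (-0.19, adjusted p = 0.691), and *5PTase12*, behind AT2G43910 (-0.10, adjusted p = 0.70), had tandem neighbors that were not called by edgeR either. For AT5G42120, 63 bp behind AT5G42130, the neighbor had a log2 fold change of -0.45 (edgeR adjusted p = 0.0899). A p above the threshold does not show that such neighbors kept their level.

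In *bdr1,2,3*, 5 of the 246 neighbors with the 3′ end towards one of the genes were lower (2.03%), against 1.83% of such neighbors of other genes. Over all tested genes 1.88% were lower and 0.603% higher in that mutant. Both mutants were compared with the same wild-type libraries. The 3 neighbors with the 5′ end towards a gene that were lower in *fpa* were AT5G06120, *La2* and AT5G59680, with log2 fold changes of -0.60, -0.77 and -1.37. AT3G01850, which follows *LYK2* by number only, fell by 1.0 ± 0.19 on the log2 scale (edgeR adjusted p = 0.0107). Neighbors called higher in *fpa* included *MAM1*, which precedes *IMS2* and acts in the same glucosinolate pathway. *MAM1* had 19.3, 14.9 and 15.8 CPM in wild type, 100, 45.8 and 61.8 CPM in *fpa* and 87.7, 81.9 and 81.5 CPM in *bdr1,2,3*, so it was raised in both mutants while *IMS2* had a *bdr1,2,3* to wild type ratio of 1.43. AT2G32870, convergent to *BGLU33*, was also higher in both, with log2 fold changes of 1.48 in *fpa* and 1.31 in *bdr1,2,3* (edgeR adjusted p = 0.000993 and 0.00121). *ANNAT1*, AT1G52060, *GMD1*, *CYP71A22* and *FP3* had log2 fold changes from 0.65 to 0.92 in *fpa*.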

How the data were processed

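RNA from whole 8-day seedlings was sequenced as single-end reads in 9 libraries. Per the study's methods and processing notes, the authors aligned reads to TAIR10 with TopHat2 2.0.8, kept uniquely aligned reads with SAMtools 1.2 and counted them per gene with featureCounts. They deposited raw counts for 33602 genes. They also deposited a normalized signal (counts divided by 1 factor per library, for 23072 nuclear genes in 8 libraries, wild-type replicate 12 not among them), which served here only as an alternative for choosing the genes. The strand setting of the counting is not given in the sources used here. No column of the tables lacked a sample.

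Gene-wise tests used edgeR 4.0.16 under R 4.3.3, with its default filter on low counts, TMM factors and a single quasi-likelihood model over the 3 genotypes. They were two-sided, and p-values were adjusted by Benjamini-Hochberg over all 20413 tested genes, with a call under 0.05. The common biological coefficient of variation was 0.188. Tested on simulated counts for *fpa* against wild type (20161 genes), the fit recovered 100% of 4-fold and 77% of 2-fold changes, with 9 false calls of 186. In that simulation changes were placed only in genes above a limit on the average level. Every gene was given the common coefficient of variation, and no library stood apart as wild-type replicate 12 did. The recovered shares therefore do not hold for weakly expressed genes. Gene borders, strands, names and exon lengths come from RefSeq TAIR10.1, which matched 98.5% of nuclear identifiers, and neighbors from its 26712 protein-coding genes in the table, ordered by midpoint. Borders can differ from those the authors counted on. Python 3.11.15, numpy 2.4.6, pandas 2.3.3 and matplotlib 3.10.9 were used.

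The genes, gene lists and tests were chosen with earlier results of these data known. Genes were named from the 12 highest in *fpa*, the 12 with the highest ratio, those nearest each threshold and called neighbors. Further sources were members with a consecutive locus number, families with at least 2 members, and the 3′-end and marker lists. Not every such family or family member was named. Exceptions are said to be chosen after their values were seen. Alternatives were DESeq2 1.42.0, other size factors, filters, thresholds and fits, neighbors by coordinates, and each library left out.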

Additional observations from a re-analysis of the deposited data

How the results depend on the processing

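The number of genes that met the rule was 268. It was 267 with nuclear totals, 228 with TMM-scaled sizes and 235 with the deposited normalized signal, of which 162 were among the 268. A ratio of at least 3 gave 102 genes, a level of at least 5 CPM 110 and a tighter *bdr1,2,3* limit 166. With each library left out it ranged from 262 to 343.

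The edgeR counts of calls moved more. DESeq2 called 584 genes higher and 835 lower in *fpa*, where edgeR called 262 and 371. It called 10 preceding and 7 following neighbors higher and 23 and 14 lower, and 33 neighbors with the 3′ end towards a gene lower. All 20 of the edgeR calls of that class were among the 33. Without a filter on low counts 575 genes were lower, and with at least 10 counts in every library 156 genes were higher and 1 neighbor with the 5′ end towards a gene was lower. With only wild type and *fpa* in the fit 207 genes were lower, and 4 following neighbors and 0 neighbors with the 5′ end towards a gene were lower. At an adjusted p under 0.01, 87 genes were higher and 100 lower, 1 preceding and 1 following neighbor was higher, 9 and 3 were lower, and 12 with the 3′ end and 0 with the 5′ end towards a gene were lower. Without neighbors that overlap a gene 12 with the 3′ end towards it were lower, and at 10 RPKM or more 0 with the 5′ end towards it. For the 228 genes chosen with TMM-scaled sizes, 19 neighbors with the 3′ end and 2 with the 5′ end towards a gene were lower. Counts of lower neighbors, the grouping by orientation, the overlap and RPKM limits and this last alternative were chosen after seeing the data.

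With each library left out, genes higher in *fpa* ranged from 97 to 325 and genes lower from 102 to 603. Preceding and following neighbors that were higher ranged from 1 to 4 and from 1 to 6, and those that were lower from 8 to 16 and from 3 to 11. Neighbors with the 3′ end towards a gene that were lower ranged from 11 to 26, and those with the 5′ end towards it from 0 to 2. For genes higher or lower in *fpa*, and for neighbors with the 3′ end towards a gene, the lowest counts came from leaving out an *fpa* library. No paired analysis was possible because the replicate numbers of the genotypes do not coincide. Weakly expressed genes carry few counts, and a change in them was less detectable.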
